A study of Mus musculus with 4 samples.

Results

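The genes described here carry the signal of leukaemia inhibitory factor (LIF) through the JAK kinases to the transcription factor STAT3, measured in mouse blastocysts edited in Ywhaz and in control blastocysts. They are the ligand gene Lif, the receptor chain genes Lifr, Il6st and Il6ra, the kinase genes Jak1, Jak2 and Tyk2, the factor gene Stat3 and its classical target genes Socs3 and Pim1. They were taken by symbol, and all 10 were found, each as a single row among the 22013 genes of the deposited table. Poly(A) RNA was sequenced from 4 libraries, 2 per group, each made from a pool of 5 C57BL/6 blastocysts whose mothers were superovulated and which were grown in vitro. The knockout group (genotype label C57BL/6 Ywhaz knockout) was treated as zygotes with CRISPR-Cas9 against Ywhaz, the gene of the adaptor protein 14-3-3 zeta, per the labels, while its columns in the deposited table carry the prefix si, which is not explained in the labels. The control group (genotype label C57BL/6 wild type) is described in the labels as untreated, as injected with Cas9 protein alone and as given a control guide RNA, and these descriptions were not reconciled here. Every library was of pooled injected or control embryos rather than of a line, and the labels do not say whether pools of a group had separate parents or dates, so p-values reflect only how these pools differ, which may be technical.

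LIF is a cytokine of the interleukin-6 family. It binds a receptor made of LIFR, its specific chain, and gp130, the signalling chain shared by the family and encoded by Il6st. The JAK kinases bound to these chains phosphorylate them and then STAT3, which enters the nucleus and switches on genes such as Socs3, whose product in turn blocks the receptor and the kinases. In the mouse the pathway is known for holding embryonic stem cells in the naive pluripotent state, for support of the inner cell mass during diapause, and for the requirement of maternal LIF at implantation.

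The values are FPKM, fragments scaled by transcript length and library depth, so levels can be compared between genes. From the spacing of low values, the depth in units of 1e6 fragments was estimated at 18.1 and 18.2 in control libraries 1 and 2 and at 18.1 and 17.3 in knockout libraries 1 and 2. The libraries held 15212 to 15490 genes above 0. Ywhaz itself measured 143 and 123 FPKM in control libraries 1 and 2, then 32.7 FPKM in the first and 98.2 FPKM in the second knockout library. It was thus lower in both knockout libraries, with knockout library 2 the closer to control, and its fold change was not called (limma log2 fold change −1.21 ± 0.39 SE, adjusted p = 0.305). Without knockout library 2 it was −1.99, and then it was called, and without knockout library 1 it was −0.43 (limma adjusted p = 0.392). Epiblast markers summed to 190 to 200.2 FPKM in the control and 292 to 315 FPKM in the knockout libraries, and all 5 found of the 6 listed had a higher knockout mean. Trophectoderm markers summed to 237 and 187 FPKM in control libraries 1 and 2 and to 229 and 354 FPKM in knockout libraries 1 and 2, with 6 of 7 higher on average. The 6 primitive endoderm markers summed to 46.2 to 59.0 FPKM in the control and 38.9 to 46.2 FPKM in the knockout libraries, and none had a higher knockout mean. Gata6 held 32.7 to 38.8 FPKM of each sum. Its knockout mean stood at 94.4% of control, beside 99.4% for Col4a1, 71.2% for Pdgfra, 41.8% for Gata4, 39.2% for Sparc and 33.0% for Sox17. Histone transcripts listed as a sign of RNA quality summed to 312 to 358 FPKM in the control and 293 to 308 FPKM in the knockout libraries, with 6 of 7 lower on average. H2ac8, the higher gene, held 173 to 201 FPKM of each sum, and its knockout mean was 111% of control. The knockout means of the 6 lower genes stood at 37.6% of control (H1f3, not above 0.186 FPKM), 51.8% (H1f2), 55.7% (H3c2), 65.0% (H2bc4), 67.9% (H4c4) and 72.4% (H1f4). The 8 cumulus cell markers summed to 0.822 FPKM at most, with Has2 and Cyp19a1 at 0. Among 6 immune and blood markers (20.8 to 33.0 FPKM in sum) the macrophage marker Cd68 measured 14.96 to 25.6 FPKM and the haemoglobin gene Hba-a1 2.93 to 11.0 FPKM. The rest of that list was low: Csf1r did not exceed 0.374 FPKM, Lyz2 0.614 FPKM, the haemoglobin gene Hbb-bs 0.470 FPKM and the leukocyte marker Ptprc 0.013 FPKM. The 5 fibroblast markers summed to 2.26 to 5.44 FPKM. The part of these markers in the results that follow was not tested, and in bulk samples fewer cells of a type and less RNA per cell cannot be told apart.

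No gene of the 10 was called different between knockout and control. Of the 6 with a mean of at least 1 FPKM, which were tested, 0 were called by limma at an adjusted p of 0.05 and 0 had an unadjusted p under 0.05, against 0.0733% and 11.1% of all 9544 genes tested. The median log2 fold change of these 6, on the log2(FPKM + 1) scale used throughout, was 0.08, beside 0.05 for all genes tested, and ran from 0.03 to 0.18 with 1 library left out. Of the 6 tested, 5 had a positive fold change, against 56% of all genes tested. Of all 10, 7 had a higher and 3 a lower mean in the knockout pools. The groups did not overlap for 3 of them, Pim1, Lifr and Il6st, against 35.6% of all genes above 0 in any library. With 2 libraries against 2, the smallest p that an exact permutation test can give for any gene is 0.333.

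Averaged over the 4 libraries, the order of the levels ran from Pim1 at 7.53 FPKM through Stat3, Tyk2, Jak1, Jak2, Lif, Socs3, Il6ra and Il6st down to Lifr at 0.102 FPKM. The ranges over libraries did not overlap between Stat3 and Tyk2, between Jak1 and Jak2, or between Il6ra and Il6st. Each other pair of neighbours in that order overlapped, so their order is within the spread between libraries.

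**Figure D1:**
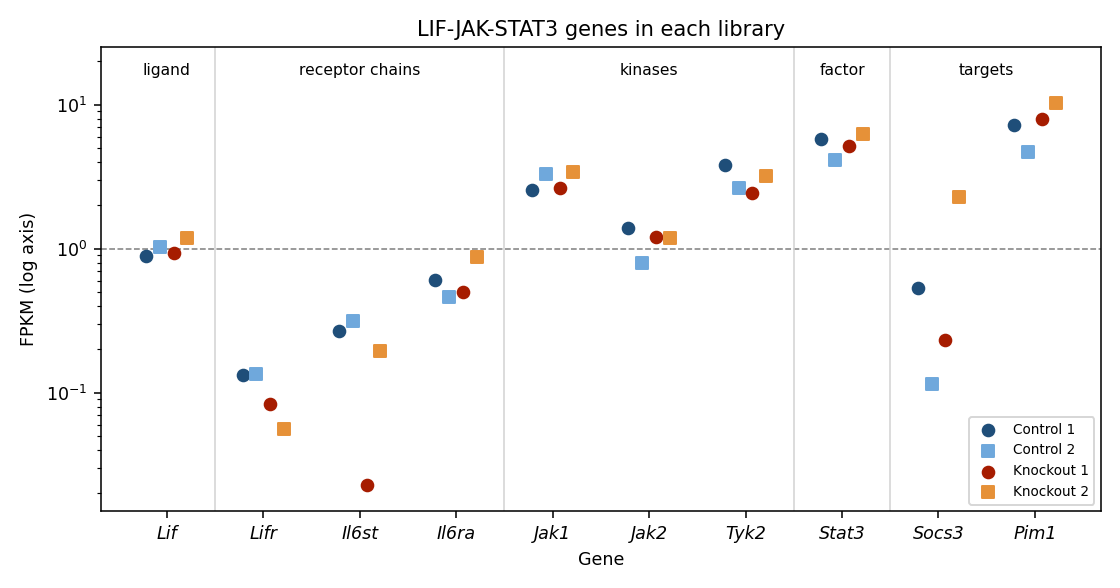
FPKM on a log axis (vertical) of each LIF-JAK-STAT3 gene (horizontal, by role) in the 4 libraries, 1 point per library, with a dashed line at 1 FPKM, the minimum mean for testing. The receptor chain genes lie below the line in every library, Stat3 and Pim1 lie above it, and Socs3 runs from 0.115 FPKM in control library 2 to 2.29 FPKM in knockout library 2.

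The ligand gene was expressed at a low level in both groups, with overlapping values. Lif (chromosome 11, 4257557 to 4272514, plus strand, GRCm38) measured 0.885 and 1.02 FPKM in control libraries 1 and 2 and 0.939 and 1.20 FPKM in knockout libraries 1 and 2. Knockout library 1 lay between both controls. Its log2 fold change was 0.08 ± 0.23 SE (limma adjusted p = 0.930), and the estimated depth puts about 58 to 79 fragments behind each value.

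All receptor chain genes were below 1 FPKM in every library, so none was tested. Lifr (chromosome 15, 7090614 to 7197489, plus strand, GRCm38) measured 0.133 and 0.134 FPKM in the control and 0.083 and 0.056 FPKM in knockout libraries 1 and 2. Both knockout values lay below both control values, and the mean stood at 52.1% of control. Taken at the longest annotated coding transcript, these are at most about 23 fragments in a control library and 9 to 14 in a knockout library. Il6st (chromosome 13, 112464070 to 112510086, plus strand, GRCm38) measured 0.269 and 0.314 FPKM in the control libraries and 0.023 and 0.196 FPKM in knockout libraries 1 and 2. Again both knockout values were the lower, but knockout library 2 lay nearer to control library 1 than to knockout library 1, whose value stands for at most about 4 fragments. The fitted log2 fold changes without a filter on low values were −0.08 ± 0.04 SE for Lifr and −0.22 ± 0.09 SE for Il6st (limma adjusted p = 0.697 and 0.626). The authors' deposited table gives log2 fold changes of −0.94 for Lifr and −1.41 for Il6st, which are of FPKM means without a pseudocount, with unadjusted p of 0.403 and 0.256. Il6ra (chromosome 3, 89864059 to 89913196, minus strand, GRCm38), whose product binds interleukin-6 and not LIF, measured 0.608 and 0.460 FPKM in the control and 0.501 and 0.880 FPKM in knockout libraries 1 and 2. Its groups overlapped, and knockout library 2 held the highest value.

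Each kinase gene overlapped between the groups. Jak1 (chromosome 4, 101152367 to 101265282, minus strand, GRCm38), which encodes the main kinase of gp130 signalling, measured 2.55 and 3.30 FPKM in the control and 2.62 and 3.42 FPKM in knockout libraries 1 and 2. Its values came in a lower and a higher pair, with a control and a knockout library in each, and the log2 fold change was 0.03 ± 0.26 SE (limma adjusted p = 0.980), turning negative with median-of-ratios scaling (−0.029) and quantile normalization (−0.053). Jak2 (chromosome 19, 29251828 to 29313080, plus strand, GRCm38), a kinase also used by hormone receptors, measured 1.40 and 0.794 FPKM in the control and 1.21 and 1.19 FPKM in the knockout libraries. Both knockout values lay between the control values (log2 fold change 0.09 ± 0.24 SE, limma adjusted p = 0.930). Tyk2 (chromosome 9, 21104068 to 21131243, minus strand, GRCm38), known above all from interferon and interleukin-12 receptors, measured 3.81 and 2.64 FPKM in the control and 2.44 and 3.18 FPKM in the knockout libraries. Its groups overlapped, and the log2 fold change was −0.14 ± 0.26 SE (limma adjusted p = 0.881).

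Shares within the JAK family overlapped too, apart from Jak3. The 4 JAK genes, Jak3 included, summed to 8.31 and 7.13 FPKM in the control and to 6.46 and 8.06 FPKM in the knockout libraries. Tyk2 made up 41.5% ± 6.26 of the sum in the control and 38.6% ± 1.16 in the knockout pools (SD, n = 2 each). Jak1 made up 38.5% ± 11.0 and 41.5% ± 1.36, differences smaller than the spread between control libraries. Jak3, the kinase of the common gamma chain of lymphocyte receptors, was too low to be tested, at 0.549 and 0.395 FPKM in the control and 0.193 and 0.264 FPKM in the knockout libraries. Its knockout values were both below its control values. Some exons of Jak1 overlap exons of Raver2 on the other strand, and those of Tyk2, Il6ra and Pim1 overlap annotated antisense genes, so reads of these pairs may not be told apart where counting ignored strand.

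Stat3 did not differ between the groups beyond its spread. Stat3 (chromosome 11, 100885098 to 100939540, minus strand, GRCm38) measured 5.82 and 4.11 FPKM in the control and 5.20 and 6.24 FPKM in knockout libraries 1 and 2. The values overlapped, with control library 2 lowest and knockout library 2 highest, and the log2 fold change was 0.18 ± 0.26 SE (limma adjusted p = 0.843). Without control library 2 it was −0.03. An exon of Stat3 overlaps one of Stat5a on the opposite strand.

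Stat3 was not the main STAT transcript of these embryos. Stat6, the factor of interleukin-4 and interleukin-13 signalling, was the most abundant of the 6 STAT genes followed here in every library, at 44.9 and 49.4 FPKM in the control and 36.3 and 35.1 FPKM in knockout libraries 1 and 2. Both knockout values were below both control values, with a log2 fold change of −0.39 ± 0.19 SE that did not pass (limma adjusted p = 0.496). Stat5a, which acts below prolactin and growth hormone receptors, came next, at 13.4 and 12.0 FPKM in the control and 12.8 and 13.2 FPKM in the knockout libraries. Its groups overlapped (log2 fold change 0.03 ± 0.22 SE, limma adjusted p = 0.978), and its direction turned with median-of-ratios scaling (−0.041) and quantile normalization (−0.061). These 6 STAT genes summed to 65.8 ± 0.48 FPKM in the control and 55.5 ± 0.48 FPKM in the knockout pools (SD, n = 2 each), while the Stat6 means were 47.1 and 35.7 FPKM. Stat3 made up 7.56% ± 1.88 of that sum in the control and 10.3% ± 1.24 in the knockout pools. Stat5a and Stat5b are near-identical neighbours, so reads may have been assigned to the wrong one and both values are uncertain. Stat2, Stat4 and Stat5b each stayed below 1 FPKM in every library.

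**Figure D2:**
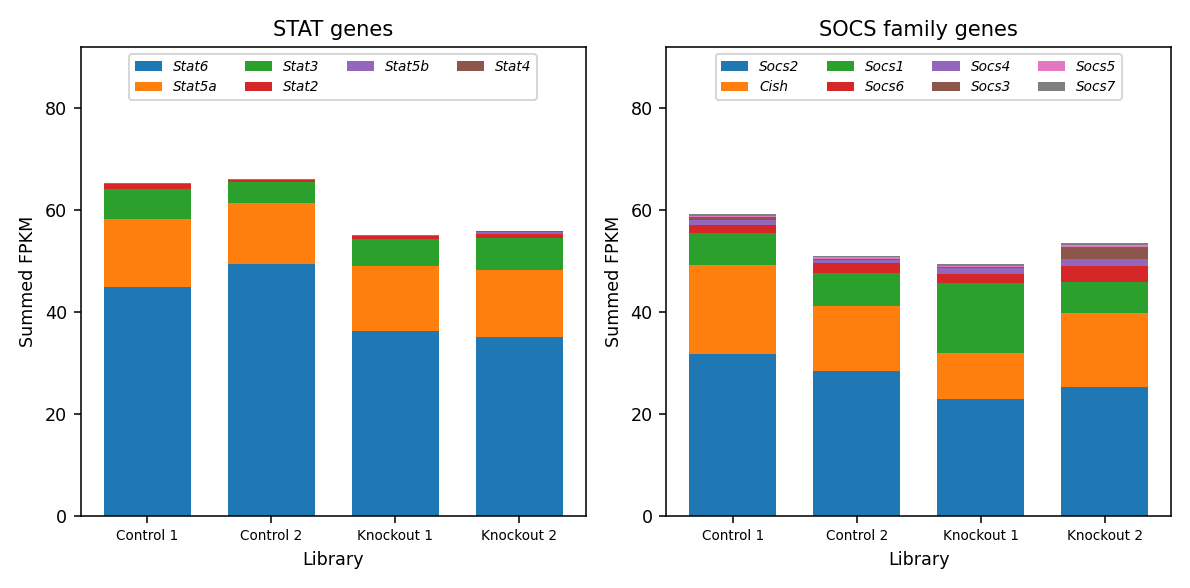
Summed FPKM (vertical) of 6 STAT genes (left) and of the SOCS family genes (right) in each of the 4 libraries (horizontal), each bar divided by gene. Stat6 fills most of each STAT bar, the knockout STAT bars (55.2 and 55.9 FPKM) are lower than the control bars (65.4 and 66.1 FPKM), and Socs3 is a thin band except in knockout library 2.

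Both STAT3 target genes had a higher mean in the knockout pools, and knockout library 2 was the highest for each. Socs3 (chromosome 11, 117966079 to 117970047, minus strand, GRCm38), the feedback inhibitor that binds gp130, measured 0.532 and 0.115 FPKM in control libraries 1 and 2 and 0.233 and 2.29 FPKM in knockout libraries 1 and 2. Knockout library 1 lay between both control libraries, so the higher mean rests on knockout library 2 alone. The estimated depth puts these values at about 23, 5, 10 and 93 fragments. Its mean was under 1 FPKM and it was not tested, and without the filter its log2 fold change was 0.62 ± 0.49 SE (limma adjusted p = 0.777). The authors' deposited table gives Socs3 an unadjusted p of 0.0445 and an FDR of 0.760. Pim1 (chromosome 17, 29490753 to 29496112, plus strand, GRCm38), a serine/threonine kinase gene that cytokines induce through STAT factors, measured 7.22 and 4.68 FPKM in the control and 7.99 and 10.2 FPKM in knockout libraries 1 and 2. Both knockout values lay above both control values, and the log2 fold change was 0.56 ± 0.27 SE (limma adjusted p = 0.490). With control library 2 left out it came to 0.29, and with knockout library 2 left out to 0.40. As the groups did not overlap, its sign could not turn with 1 library left out. It was 0.49 with median-of-ratios scaling and 0.45 with quantile normalization. The authors' deposited table gives Pim1 an unadjusted p of 0.0233 and an FDR of 0.617. Among its genes above 0, 6.32% had an unadjusted p under 0.05 and 0.309% an FDR under 0.05. Knockout library 2 was also the library with the highest trophectoderm marker sum, at 354 FPKM, and the part of that in these values was not tested.

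The sequences before the RefSeq starts of the target genes are shown because STAT3 acts on both through DNA. They are from RefSeq's table on GRCm38.p6 and, read 5′ to 3′, stop before the next base that GENCODE M21 annotates as an exon of the gene. The Pim1 stretch ends at the start of the annotated gene. The Socs3 stretch lies inside the annotated gene, in an intron of a transcript without a coding annotation that begins at 117970047, and before the coding transcript. The Socs3 stretch is chr11:117969452-117969616 on the minus strand and the Pim1 stretch chr17:29490535-29490752 on the plus strand, written 5′ to 3′ in lower case, with any match to the STAT motif TTCNNNGAA in capitals.
Socs3: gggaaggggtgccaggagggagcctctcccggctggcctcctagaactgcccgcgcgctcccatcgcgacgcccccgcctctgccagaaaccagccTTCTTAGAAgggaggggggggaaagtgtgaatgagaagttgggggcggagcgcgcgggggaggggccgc
Pim1: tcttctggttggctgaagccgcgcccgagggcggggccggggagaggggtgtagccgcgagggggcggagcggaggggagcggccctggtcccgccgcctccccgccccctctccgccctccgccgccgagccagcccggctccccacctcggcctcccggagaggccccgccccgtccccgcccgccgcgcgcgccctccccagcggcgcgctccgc
The capitals in Socs3 mark the match TTCTTAGAA at 117969512 to 117969520, and the Pim1 stretch holds none. The motif is its own reverse complement, so both strands were searched. Over the 250 bases before each RefSeq start, 1 of the 12 windows of the 10 genes held it, against 7.02% of 32851 windows of all genes, and the narrower TTCCNGGAA within it was in 0 of the 12 and in 0.913% of all. GENCODE places the start of the coding Socs3 transcript at 117969186, downstream of this window, so the bases next to that start were not searched. A match is a run of letters and not a site of binding. The Socs3 stretch is 70.3% and the Pim1 stretch 83.0% G and C.

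Several of these genes shared an order of the libraries within each group. In 5 of the 10, namely Il6ra, Tyk2, Stat3, Socs3 and Pim1, control library 1 exceeded control library 2 and knockout library 2 exceeded knockout library 1. The same held for 39.3% of genes above 0 in any library, and among tested genes for 3 of 6 against 49.7%, shares near the background.

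Around these genes, 48 further genes of the pathway were followed in 5 lists. Of the 28 tested, 0 reached the threshold in limma after adjustment, and 4 had an unadjusted p under 0.05, against 11.1% of all genes tested. Of these 4, 3 were higher and 1 lower in the knockout pools, where all genes tested gave 7.75% higher and 3.33% lower. Their median log2 fold change was 0.16, beside 0.05 for all genes tested. Without control library 2 these medians were 0.077 and −0.0043, and without control library 1 they were 0.26 and 0.12.

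Other ligand genes of the interleukin-6 family were low and were not called. Il6, the founding cytokine of the family, measured 2.22 and 2.40 FPKM in the control and 1.53 and 1.01 FPKM in the knockout libraries. Both knockout values were lower than both control values (log2 fold change −0.55 ± 0.25 SE, limma adjusted p = 0.444). Ctf2, the mouse cardiotrophin-2 gene, went the other way, from 2.27 and 2.38 FPKM in control to 3.96 and 2.93 FPKM in the knockout libraries (limma log2 fold change 0.41 ± 0.25 SE, limma adjusted p = 0.598), and its fold change was 0.24 without knockout library 1. Ctf1, the cardiotrophin-1 gene, had means of 1.27 ± 0.13 and 1.32 ± 0.43 FPKM in the control and knockout pools (SD, n = 2 each), a difference smaller than the spread. Its log2 fold change of 0.02 turned to −0.020 with median-of-ratios scaling and to −0.026 with quantile normalization.

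The remaining ligand genes were too low to be tested. Osm, which encodes oncostatin M, measured 0.831 and 0.361 FPKM in the control and 0.890 and 1.40 FPKM in the knockout libraries, with both knockout values the higher. Clcf1, a cytokine gene that acts through the ciliary neurotrophic factor receptor, stood at 0.128 and 0.032 FPKM in the control libraries and was listed at 0 in both knockout libraries. Cntf, Ebi3, Il11 and Il27 lay between 0 and 0.754 FPKM. In all, 6 of these 9 ligand genes had groups that did not overlap, 4 higher and 2 lower in the knockout pools, beside 35.6% of genes above 0. Among these 6, Il11, Il27 and Clcf1 rest on at most about 4 fragments in any library, so single fragments can decide their order.

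Receptor chains for these ligands were also below 1 FPKM in every library, though Il11ra1, at a mean of 0.475 FPKM, lay above Lifr (0.102 FPKM) and Il6st (0.201 FPKM). Osmr, Cntfr, Il11ra1 and Il27ra did not exceed 0.737 FPKM in any library and Il31ra was listed at 0 in all 4. Together with Lifr, Il6st and Il6ra, the 8 chains of the family summed to 1.99 and 1.38 FPKM in the control and to 1.302 and 1.652 FPKM in the knockout libraries, with overlap. Cntfr, the chain for ciliary neurotrophic factor, was the 1 of 4 added receptor genes above 0 with groups apart, against 35.6% of all genes above 0, at 0.245 and 0.243 FPKM in the control and 0.123 and 0.032 FPKM in the knockout libraries.

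Genes that hold JAK-STAT signalling back had the highest median fold change of the lists in this fit. Of the 13 tested out of 16 listed, 10 were positive and 3 negative, against 56% positive among all genes tested. Their median log2 fold change was 0.31 beside 0.05 for all genes tested, and 0 passed over all genes. Groups did not overlap for 9 of the 13, 8 higher and 1 lower in the knockout pools, beside 41.4% of all genes tested, counted in either direction. Over all 16 listed, tested or not, it was 9 of 16, beside 35.6% of genes above 0 in any library. Socs4, among the 8 higher, averaged 0.865 FPKM in the control and 1.23 FPKM in the knockout pools. It thus entered the counts of tested genes only through its knockout values. Over the 13 alternative fits the median ran from 0.19, without control library 2, to 0.44, without knockout library 1.

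Ptpn6 and Ptpn2, both phosphatase genes, had the highest log2 fold changes of this list. The log2(FPKM + 1) scale shrinks changes at low levels. Both came to 0.69 on it, while the knockout mean FPKM stood at 210% of control for Ptpn6 and 162% for Ptpn2. The other phosphatase genes tested, Ptpn1 and Ptpn11, had log2 fold changes of 0.30 and 0.31 (limma adjusted p = 0.705 and 0.715). Ptpn2, which encodes the phosphatase TC-PTP that acts on JAK1 and on STAT factors in the nucleus, measured 30.0 and 34.7 FPKM in control libraries 1 and 2 and 50.5 and 54.5 FPKM in knockout libraries 1 and 2. The groups were apart by more than the spread within either, with a log2 fold change of 0.69 ± 0.20 SE (limma adjusted p = 0.274). Across the 13 alternatives its adjusted p ranged from 0.0328 to 0.903, and it passed only in the fit that paired control library 1 with knockout library 2. Ptpn6, which encodes the phosphatase SHP-1 of cytokine receptors, measured 1.32 and 1.15 FPKM in the control and 2.41 and 2.79 FPKM in the knockout libraries. Here too the groups did not overlap (log2 fold change 0.69 ± 0.24 SE, limma adjusted p = 0.346). Pias4, which encodes a SUMO ligase that restrains STAT-dependent transcription, measured 9.89 and 8.07 FPKM in the control and 14.0 and 13.4 FPKM in the knockout libraries (limma log2 fold change 0.57 ± 0.23 SE, limma adjusted p = 0.413). Epiblast markers were higher in the same libraries, 292 to 315 against 190 to 200.2 FPKM in sum, and their part in these values was not tested.

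SOCS family genes, which encode feedback inhibitors, did not follow one direction. Socs2 measured 31.7 and 28.4 FPKM in the control and 22.9 and 25.3 FPKM in the knockout libraries, apart and lower in the knockout pools, with a log2 fold change of −0.31 (limma adjusted p = 0.631). Socs4 and Socs6 were apart and higher, with log2 fold changes of 0.26 and 0.37 (limma adjusted p = 0.73 and 0.663). Socs4 measured 1.021 and 0.708 FPKM in the control and 1.141 and 1.32 FPKM in the knockout libraries. Socs6 measured 1.564 and 1.845 FPKM in the control and 1.879 and 3.221 FPKM in the knockout libraries. Cish, a target of STAT5, overlapped, at 17.6 and 12.7 FPKM in the control and 8.97 and 14.5 FPKM in the knockout libraries. Socs1, an inhibitor of JAK kinases, stood at 6.20 and 6.55 FPKM in the control libraries, while knockout library 1 held 13.8 FPKM and knockout library 2 held 6.04 FPKM, so its higher knockout mean rests on knockout library 1. The 8 SOCS family genes summed to 55.1 ± 5.81 FPKM in the control and 51.5 ± 2.92 FPKM in the knockout pools (SD, n = 2 each). Socs3 made up 0.226% to 4.28% of that sum, and Socs2 46.4% to 55.8%, over the 4 libraries.

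**Figure D3:**
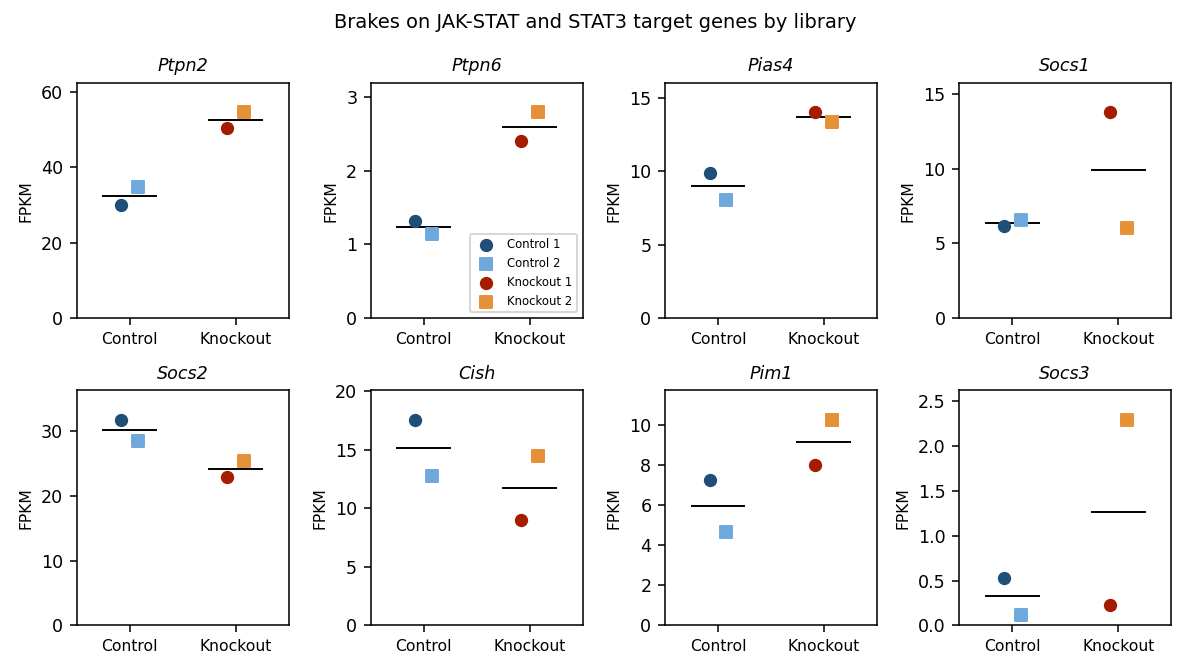
FPKM (vertical, from 0) of 6 genes that restrain JAK-STAT signalling and of the STAT3 targets Pim1 and Socs3 by group (horizontal), 1 point per library, with a line at the mean of each group (n = 2). Ptpn2, Ptpn6, Pias4 and Pim1 are higher and Socs2 is lower in both knockout libraries, while Socs1 is far above the controls only in knockout library 1 and Socs3 only in knockout library 2.

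Of the genes that respond to STAT3 in embryonic stem cells, none was called. Of the 10 tested out of 12, 7 had a positive and 3 a negative log2 fold change, against 56% positive among all genes tested. None had an unadjusted p under 0.05, against 11.1% of all genes tested. Their median log2 fold change was 0.15, and it was 0.049 without control library 2 and 0.23 without control library 1. Klf5, a pluripotency and trophectoderm factor, measured 73.7 and 58.4 FPKM in the control and 73.1 and 96.4 FPKM in the knockout libraries (limma log2 fold change 0.35 ± 0.21 SE, limma adjusted p = 0.591), and its groups overlapped. It was 0.15 without knockout library 2, 0.19 without control library 2 and 0.55 without knockout library 1. Myc, the growth-promoting factor, measured 2.87 and 2.45 FPKM in the control and 3.67 and 3.26 FPKM in the knockout libraries, with both knockout values higher (log2 fold change 0.29 ± 0.25 SE, limma adjusted p = 0.723). Ier3, an immediate-early gene, measured 12.7 and 7.31 FPKM in the control and 3.16 and 10.6 FPKM in the knockout libraries, so knockout library 1 stood low and knockout library 2 lay between the controls. Its log2 fold change was −0.62 ± 0.43 SE (limma adjusted p = 0.652). Without knockout library 2 it was −1.36, past the threshold with the knockout group reduced to 1 library (limma adjusted p = 0.0191), and without knockout library 1 it was 0.12. Tfcp2l1 and Klf4, mediators of LIF in naive pluripotency, had log2 fold changes of 0.15 and 0.18, each smaller than its standard error of 0.23 and 0.25. Gbx2 and Cebpd averaged under 1 FPKM and were not tested. Gbx2 measured 0.58 and 0.439 FPKM in the control and 0.39 and 0.175 FPKM in the knockout libraries. Cebpd measured 0.852 and 1.135 FPKM in the control and 0.82 and 0.451 FPKM in the knockout libraries. Groups did not overlap for 3 of the 12, 1 higher and 2 lower in the knockout pools, beside 35.6% of genes above 0.

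**Figure D4:**
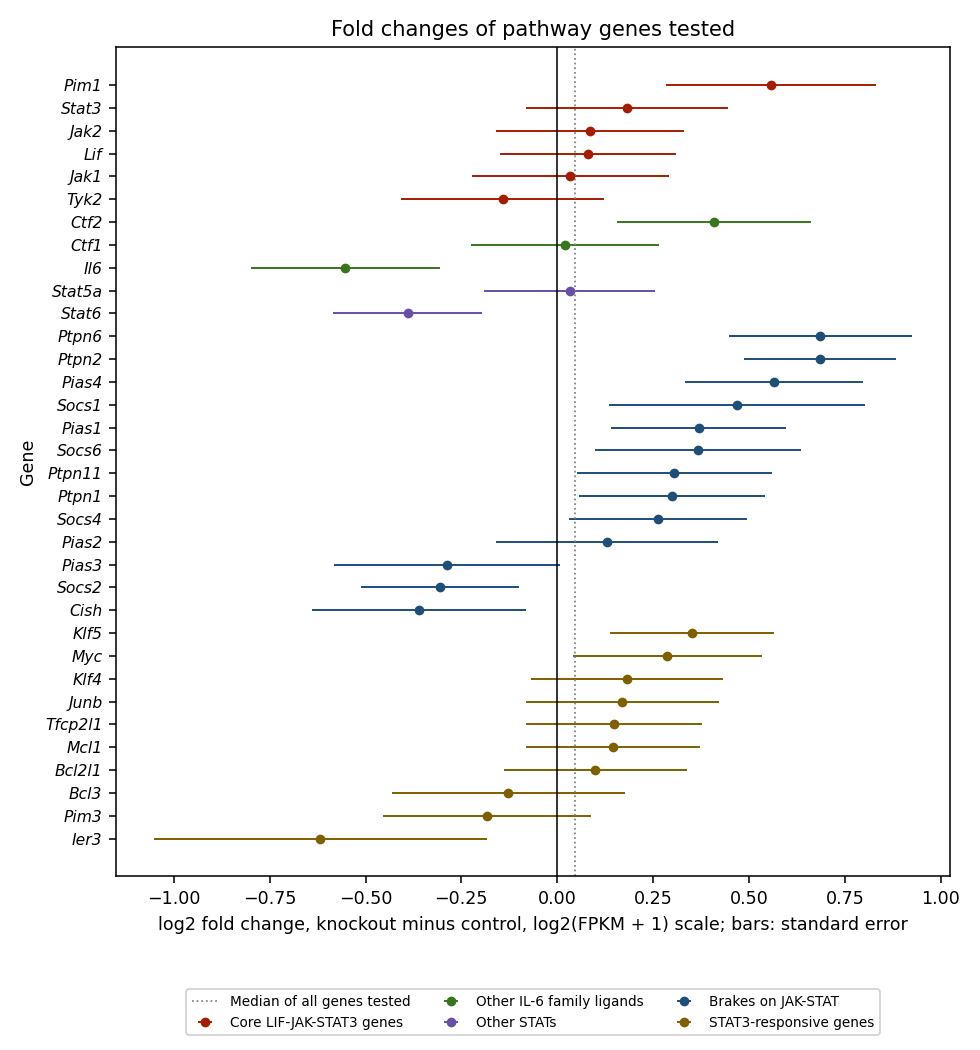
Log2 fold change, knockout minus control on the log2(FPKM + 1) scale (horizontal), with its standard error from limma as a bar, for each pathway gene tested (vertical), coloured by list, with a dotted line at the median of all genes tested. None passed an adjusted p of 0.05. Of the 13 genes that restrain JAK-STAT signalling, 10 lie to the right of 0, against 56% of all genes tested.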

How the data were processed

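RNA-seq of 4 libraries was analysed from the table that the authors deposited, which gives FPKM per gene and library and no counts. The submitters' processing notes list HISAT2 2.1.0, Bowtie2 2.2.8, RSEM, StringTie 1.3.1, DESeq2, fastp 0.18.0 and the build GRCm39, but no roles. The deposited log2 fold change, p-value and FDR columns were made by the authors with a test that the sources used here do not name. The 9544 genes averaging 1 FPKM or more were fitted on log2(FPKM + 1) with limma 3.58.1 in R 4.3.3, with an intensity trend, group as the only term and p-values adjusted by Benjamini-Hochberg across all 9544. The threshold was 0.05, and every fold change is knockout minus control. The fit was checked on simulated data. Every simulated gene had the same spread, unlike the genes here, so that check does not measure how the fit performs on these data.

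The core genes and all lists were chosen with earlier results of these data known. The genes named are all 10 core genes, Ywhaz, every ligand above 0 and up to 3 tested genes of smallest p per further list. Of the genes first listed, 2 are not reported here. Jak3, Cntfr and the receptor and STAT genes given by level were named with their values known. So were Ptpn1, Ptpn11, Socs1, Socs2, Socs4, Socs6, Cish, Klf4, Tfcp2l1, Gbx2 and Cebpd. Depth was estimated from single-transcript genes over 1500 nt, taking fragments as 200 nt, where 72.2% to 75.1% of low values came within 0.1 of a whole fragment, so fragment numbers are approximate and cover counting error only. Gene positions come from GENCODE M21 on GRCm38, not the authors' build.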

Additional observations from a re-analysis of the deposited data

How the results depend on the processing

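In each of the 13 alternative fits 0 of the core genes passed. Their median log2 fold change of 0.08 stayed within 0.152, its SD between libraries of a group, except at a minimum of 5 FPKM, where only Stat3 and Pim1 remain (0.37), and ranged from 0.03 to 0.18 when 1 library was left out. The count of further pathway genes passing ranged from 0 to 1 with 1 library left out (Ier3, without knockout library 2), and was 1 with crossed numbers (Ptpn2). Over all genes, 7 passed, against 0 with no filter (1400 at an unadjusted p under 0.05) or quantile normalization (1250), 13 with TPM scaling, 4 with median-of-ratios scaling, 3 with no intensity trend and 15 to 205 with 1 library left out; such a fit leaves a lone library assumed to vary like the other group. The cause of these differences was not tested.

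The replicate block gave 38 calls over all genes and 0 among the core genes. The reported fit was set up without pairing the numbers, with the replicate block as an alternative. Deviations of same-numbered libraries had a weak negative correlation across genes tested (−0.244). Crossed numbers, added after seeing the data, gave 475 calls over all genes. Ywhaz, not called in the reported fit, was called with the replicate block (limma adjusted p = 0.00246), with crossed numbers (0.0155) and without knockout library 2 (2.79e-07), and over all its alternatives the adjusted p reached 0.631.

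The filters, the intensity trend and the replicate blocks leave each fold change as it is, so values from those fits could not change sign. Of 225 values of 18 named genes under the alternatives, those included, 16 changed sign. None of the 18 genes was called in the reported fit, so these values say nothing about the signs of called genes. With median-of-ratios scaling and quantile normalization these were Ctf1 (−0.020 and −0.026), Jak1 (−0.029 and −0.053) and Stat5a (−0.041 and −0.061). With 1 library left out, the values ran from −0.17 to 0.21 for Ctf1, −1.36 to 0.12 for Ier3, −0.11 to 0.18 for Jak1, −0.12 to 0.29 for Jak2, −0.0091 to 0.17 for Lif, −0.025 to 0.39 for Stat3, −0.041 to 0.11 for Stat5a and −0.34 to 0.059 for Tyk2. Receptor chains and Socs3 rest on few fragments, which limits the precision of their values.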
